A study of Mus musculus with 12 samples.

Results

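Nppa and Nppb encode the precursors of atrial natriuretic peptide (ANP) and B-type natriuretic peptide (BNP), the hormones that heart muscle releases when its wall is stretched. Each gene was read by 1 probe, so the members are 2 of 60819 probes analysed on a mouse array of coding and long noncoding transcripts. The array was hybridized with RNA from 12 left ventricles (LVs), 3 in each of 4 groups, and the members were taken by probe name. Both gene names came from the study's lists of genes changed on these same arrays. Passing similar limits below is therefore no independent support for a change.

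All 12 mice were C57BL/6J, carried floxed miR-150 on both alleles (miR-150 fl/fl) and were 13 to 15 weeks old at harvest, 4 weeks after surgery. The miR-150 cKO mice also carried alpha-MHC-Cre, a transgene that expresses Cre recombinase from the promoter of cardiac myosin heavy chain and so deletes miR-150 in cardiomyocytes. The controls were Cre-negative, so an effect of Cre alone cannot be told apart from an effect of the deletion. Myocardial infarction (MI) was made by tying off the left anterior descending coronary artery for good, and sham surgery left it open. The groups were sham miR-150 fl/fl (13, 14 and 14 weeks), MI miR-150 fl/fl (14 weeks in all 3), sham miR-150 cKO (14, 15 and 15 weeks) and MI miR-150 cKO (15 weeks in all 3), each with 2 females and 1 male. No probe for miR-150 could be named, so the deletion itself was not checked here.

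Both peptides act on blood vessels and kidney through the receptor NPR-A, a guanylyl cyclase that makes cGMP, and they lower blood pressure and promote the excretion of salt and water. In the adult heart Nppa is expressed mainly in the atria. The ventricle expresses it in fetal life and again under load or after injury, while Nppb responds quickly to wall stress in the ventricle and its circulating product is a clinical marker of heart failure. The genes lie next to each other on mouse chromosome 4, Nppb first and Nppa second, between the uncharacterised gene 2510039O18Rik and the chloride transporter gene Clcn6.

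The sequence before each start site is shown because the pair share a chromosomal neighbourhood and because factors of the cardiac lineage are known to act there. The windows are the 250 bases before the start that RefSeq gives on assembly GRCm38.p6, both on the plus strand: chr4:148000472-148000721 for Nppa and chr4:147985650-147985899 for Nppb, whose gene record also holds a start inside this window. Capitals mark the letters searched on both strands: GATA (GATA factors), AAGTG (a partial site of the NKX2-5 type), GGAATG (the MCAT element of TEAD factors) and AGGTGT (T-box factors). The CArG box of serum response factor was searched by name.
Nppa: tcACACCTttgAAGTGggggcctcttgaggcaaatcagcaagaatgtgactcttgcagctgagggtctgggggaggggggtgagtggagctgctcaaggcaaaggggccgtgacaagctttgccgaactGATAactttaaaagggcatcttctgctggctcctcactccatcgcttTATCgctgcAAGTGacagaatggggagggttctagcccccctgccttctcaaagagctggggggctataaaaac
Nppb: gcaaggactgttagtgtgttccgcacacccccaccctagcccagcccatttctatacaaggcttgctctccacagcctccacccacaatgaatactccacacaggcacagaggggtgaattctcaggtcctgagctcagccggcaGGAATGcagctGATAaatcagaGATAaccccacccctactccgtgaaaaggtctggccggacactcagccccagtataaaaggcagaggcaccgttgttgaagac

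GATA stood 2 times in each window. In Nppa the matches began 121 bases before the start on the plus strand and 74 bases before it on the minus strand. In Nppb they began 94 and 83 bases before the start, both on the plus strand. AAGTG was found 2 times in Nppa (239 and 65 bases before the start) and not in Nppb, GGAATG once in Nppb (105 bases before) and not in Nppa, and AGGTGT once in Nppa (248 bases before, minus strand) and not in Nppb. The CArG box, in its strict form, matched neither window. Such short letters are common: of 32851 windows of this length, 53.6% held GATA, 40.7% AAGTG, 12.6% GGAATG, 11.8% AGGTGT and 1.47% a CArG box. The matches are descriptions of the sequence, and no binding was measured.

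Levels are given as log2 of the scanner's processed signal minus the 75th percentile of the same array, so that 1 unit is a 2-fold difference between arrays in the same probe. The probes were well above background on all 12 arrays and saturated on none, with processed signals from 3502 to 65436. Slide here stands for the scan date in the file headers, which held 2 dates. Row stands for the first character of the array barcode field in those headers. Both are inferred, since no slide name was read. The 4 arrays of slide 1 held all 3 MI miR-150 cKO samples and replicate 3 of MI miR-150 fl/fl, and slide 2 held the other 8. Correlations between arrays over all probes ran from 0.969 to 0.991, and 74.1% to 90.3% of probes were well above background, with the lowest shares in sham miR-150 cKO replicates 2 and 3. Of 10 ventricular cardiomyocyte markers listed, Tnnt2 (cardiac troponin T) and Atp2a2 (the calcium pump SERCA2) could be named and were well above background on every array. None of the 4 atrial markers listed (Sln, Myl4, Myl7, Bmp10) could be named, so atrial tissue in the samples was not checked.

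**Figure D1:**
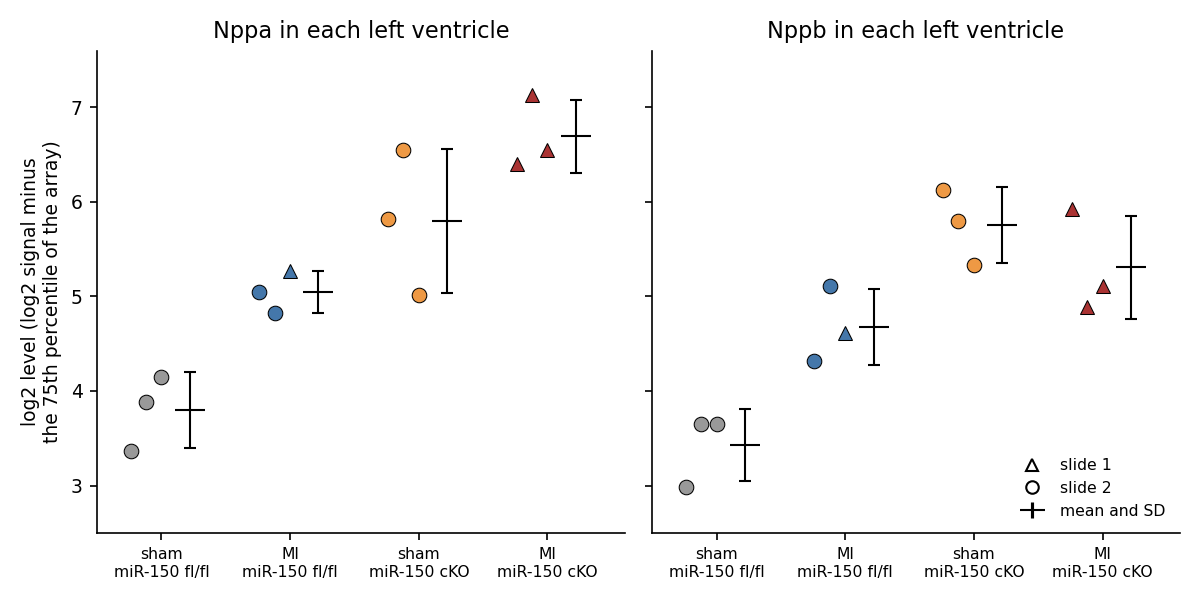
Log2 level of Nppa (left) and Nppb (right) in each of the 12 left ventricles, by group, with the group mean and SD beside the points (n = 3) and the slide of each array given by the symbol. Nppa means climb from 3.80 in sham miR-150 fl/fl to 6.69 in MI miR-150 cKO, whereas Nppb is highest in sham miR-150 cKO, at 5.75.

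In uninjured hearts both peptide genes were several-fold higher without miR-150 in cardiomyocytes. The log2 level of Nppa was 3.36, 3.89 and 4.15 in sham miR-150 fl/fl and 5.82, 6.55 and 5.02 in sham miR-150 cKO. Every cKO ventricle lay above every control, by 0.87 at the narrowest point. The difference was 2.0 ± 0.35 on the log2 scale (SE), or 3.99-fold with a 95% interval of 2.32 to 6.87.

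For Nppb the sham miR-150 fl/fl levels were 2.99, 3.65 and 3.65, and the sham miR-150 cKO levels 6.13, 5.80 and 5.33. These groups were also separate, with a gap of 1.68. The difference was 2.33 ± 0.32 (SE), a 5.02-fold higher level with a 95% interval of 3.06 to 8.21. In bulk tissue, more cells of a type and more RNA per cell cannot be told apart. All 6 sham arrays were on slide 2, but its row 1 held the 3 controls and cKO replicate 1, and its row 2 cKO replicates 2 and 3. Within row 1, the cKO array had Nppa at 5.82 and Nppb at 6.13, above the 3 controls in both genes.

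Neither difference passed the Benjamini-Hochberg adjustment of limma over the 54232 probes tested (adjusted p = 0.509 for Nppa and 0.299 for Nppb), and 0% of all probes did. At an unadjusted p under 0.05, limma counted 4976 probes, and the unpaired 2-tailed test of the study's methods, once adjusted, counted 0. A wider limit, at least 1.5-fold with an unadjusted p under 0.05, was passed upward by 0.636% of probes in sham miR-150 cKO, both members among them (limma, unadjusted p = 0.000184 for Nppa and 2.2e-05 for Nppb). Both probes were named from study lists chosen at such limits on these arrays, so their place among all probes is a description. Groups as cleanly separated as these, with every cKO array higher, were found in 5.05% of probes. Only 15 probes had a larger positive difference than Nppa and 9 a larger one than Nppb, or 0.0277% and 0.0166% of those tested. With 3 arrays against 3, the exact permutation test cannot fall below p = 0.1, which is the value both genes gave (two-sided).

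Age was unequal between these groups, at 14 to 15 weeks in the cKO shams and 13 to 14 weeks in the control shams. At 14 weeks there was 1 sham miR-150 cKO ventricle, with Nppa at 6.55 and Nppb at 5.80. The 2 sham miR-150 fl/fl ventricles of that age had Nppa at 3.36 and 3.89 and Nppb at 2.99 and 3.65. This single cKO ventricle was the male with the highest Nppa of its group, so it does not separate age from genotype, which cannot be told apart here.

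At 4 weeks after infarction the controls had higher levels of both genes, by nearly the same amount. Nppa in MI miR-150 fl/fl stood at 5.04, 4.83 and 5.27, all above the 3 sham controls. It was 1.25 ± 0.35 higher (SE), or 2.37-fold, with a 95% interval of 1.38 to 4.08 (limma, unadjusted p = 0.0052, adjusted p = 1).

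Nppb in the same ventricles stood at 4.31, 5.11 and 4.61, again above every sham control. It was 1.25 ± 0.32 higher (SE), or 2.38-fold, with a 95% interval of 1.45 to 3.89 (limma, unadjusted p = 0.00275, adjusted p = 1). The share of probes past the adjusted threshold was 0%, with 2288 probes at an unadjusted p under 0.05 and 0 by the adjusted unpaired test. Past the 1.5-fold limits, 0.881% of probes were higher, and 3.83% were higher in every infarcted array, both genes in each. With slide and row as a block Nppa no longer passed the limits (1.17). On slide 2 alone, with 2 infarcted and 3 sham ventricles, the difference was 1.14 for Nppa and 1.28 for Nppb. The single infarcted control on slide 1, replicate 3, had the highest Nppa and the middle Nppb level of its group.

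Among infarcted hearts the 1.5-fold limits were passed by Nppa and not by Nppb. Nppa was 6.40, 7.13 and 6.55 in MI miR-150 cKO, above all 3 MI miR-150 fl/fl ventricles. The difference was 1.65 ± 0.35 (SE), or 3.13-fold with a 95% interval of 1.82 to 5.40 (limma, unadjusted p = 0.000805, adjusted p = 0.0869). It was 1.43 against the only control infarct on the same slide. The study chose Nppa for qPCR because it was higher on these arrays. That qPCR did not bear out higher Nppa in this comparison, in infarcted against sham controls, or in both.

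Nppb in MI miR-150 cKO was 5.93, 4.89 and 5.11, which overlapped with the 4.31 to 5.11 of the control infarcts. Its difference was 0.63 ± 0.32 (SE), with a 95% interval of -0.08 to 1.34 (limma, unadjusted p = 0.0756, adjusted p = 0.353), and 0.70 on the same slide. The adjusted threshold was passed by 0.00184% of probes, the 1.5-fold limits in the upward direction by 3.45%, and complete separation upward by 15.4%. Nppa met the latter 2 and Nppb neither. This contrast was not firm: Nppb passed the 1.5-fold limits under 3 of 24 alternatives, with sex as a covariate, without MI cKO replicate 2 (0.84) and with replicate 2 of the control infarcts left out (0.85), and stood at 0.32 without MI cKO replicate 1. Nppa passed them under all 24. A larger difference than that of Nppa was found in 96 probes (0.177%), and a larger one than that of Nppb in 2148 (3.96%). The infarcted cKO mice were all 15 weeks old and the infarcted controls all 14 weeks, so age and genotype cannot be told apart here.

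**Figure D2:**
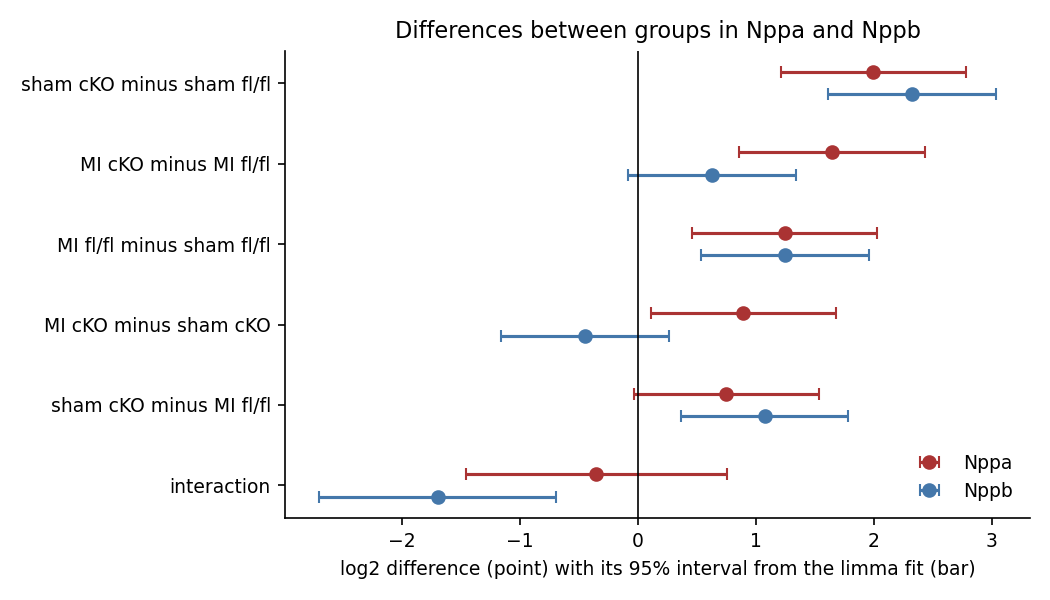
Log2 differences of Nppa and Nppb between groups, as points, with 95% intervals of the limma fit as bars. Both genes have similar estimates in shams and for infarction of controls, whereas for MI cKO minus sham cKO the estimate is 0.90 for Nppa and -0.44 for Nppb.

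After infarction of cKO hearts, Nppa was higher than in cKO shams by 0.90 ± 0.35 (SE), or 1.86-fold, with a 95% interval of 1.08 to 3.21. The groups overlapped, since sham replicate 2 (6.55) lay above MI replicate 1 (6.40) (limma, unadjusted p = 0.0288, adjusted p = 0.188). Nppb was not higher: its estimate was -0.44 ± 0.32 (SE), with a 95% interval of -1.15 to 0.27 (limma, unadjusted p = 0.195, adjusted p = 0.449), and these groups overlapped too. In this comparison, 2.1% of probes passed the adjusted threshold, neither member among them, while 4.6% were higher past the 1.5-fold limits, Nppa included, and 15.4% were higher in every infarcted array, with neither member included. The infarcted cKO samples filled slide 1 and the cKO shams slide 2, and only MI miR-150 fl/fl joins the slides. With slide as a block the estimate for Nppa was 0.57 and no longer past the limits. It also missed them without MI cKO replicate 2 (0.68), without sham cKO replicate 1 (0.91) and without sham cKO replicate 3 (0.51). Nppb passed them downward without MI cKO replicate 1 (-0.75).

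The deletion without injury was also set against injury without the deletion. For Nppb, sham miR-150 cKO exceeded MI miR-150 fl/fl in every array, by 1.08 ± 0.32 (SE), or 2.11-fold, with a 95% interval of 1.29 to 3.45 (limma, unadjusted p = 0.00688, adjusted p = 0.302). For Nppa the difference was 0.75 ± 0.35 (SE), with a 95% interval of -0.03 to 1.54 (limma, unadjusted p = 0.0587, adjusted p = 0.387), and sham cKO replicate 3 (5.02) fell within the range of the control infarcts. The adjusted threshold was passed by 0% of probes, with 7298 at an unadjusted p under 0.05 and 0 by the adjusted unpaired test. The share higher past the 1.5-fold limits was 0.765%, and the share higher in every array was 8.7%. Nppb met both and Nppa neither. Nppa did pass the limits under 3 of 24 alternatives, with normexp background correction (0.76), with housekeeping scaling (0.71) and without sham cKO replicate 3 (1.14), and stood at 0.38 without sham cKO replicate 2. Nppb missed them under 1, with slide and row as a block (0.85).

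The order of mean levels therefore differed between the genes. Nppa ran from sham miR-150 fl/fl (3.80 ± 0.40, SD, n = 3) through MI miR-150 fl/fl (5.05 ± 0.22) and sham miR-150 cKO (5.80 ± 0.76) to MI miR-150 cKO (6.69 ± 0.39). The middle pair and the upper pair of neighbours overlapped. Nppb ran from sham miR-150 fl/fl (3.43 ± 0.38, SD, n = 3) through MI miR-150 fl/fl (4.68 ± 0.40) and MI miR-150 cKO (5.31 ± 0.55) to sham miR-150 cKO (5.75 ± 0.40), and only its lowest pair of neighbours did not overlap.

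Averaged over surgery, the genotype difference was 1.82 ± 0.25 for Nppa (SE, 6 arrays against 6), or 3.54-fold. The exact permutation test, with genotype exchanged within each surgery (400 arrangements, two-sided), gave p = 0.005, the smallest it can give. For Nppb it was 1.48 ± 0.23 (SE), or 2.79-fold, with an exact p = 0.01. Fitted with limma and adjusted over all probes, the averaged differences had adjusted p = 0.145 for Nppa and 0.153 for Nppb. Since age differed between genotypes in shams and in infarcted hearts, these averages carry the same limit. Slide was also unequal between genotypes in infarcted hearts, and row in shams. The exchanges crossed both, and values with slide and row as a block are given with the alternatives below.

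Averaged over genotype, the surgery difference was 1.07 ± 0.25 for Nppa (SE), or 2.10-fold, with an exact p = 0.01 by permutation within genotype. For Nppb it was 0.40 ± 0.23 (SE), or 1.32-fold, with an exact p = 0.3. The surgery result for Nppa rested on arrays of both slides, and with slide as a block the difference was 0.85. With exchanges kept within slides, only the 2 infarcted and 3 sham controls of slide 2 could be exchanged. That test (exact permutation p = 0.2) could not give a p under 0.05, so it does not decide whether surgery made a difference.

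The interaction of genotype and surgery asks whether the infarct response differed between genotypes. For Nppb it was -1.69 ± 0.45 (SE), with a 95% interval of -2.70 to -0.69 (limma, unadjusted p = 0.00362, adjusted p = 0.223). For Nppa it was -0.35 ± 0.50 (SE), with a 95% interval of -1.46 to 0.76 (limma, unadjusted p = 0.501, adjusted p = 0.779). After adjustment 0% of probes passed, and 7285 had an unadjusted p under 0.05. Differing infarct responses between genotypes are therefore not shown for either gene after adjustment. In cKO hearts surgery went with slide, and only MI miR-150 fl/fl joined the slides, so the interaction estimates carry that limit.

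**Figure D3:**
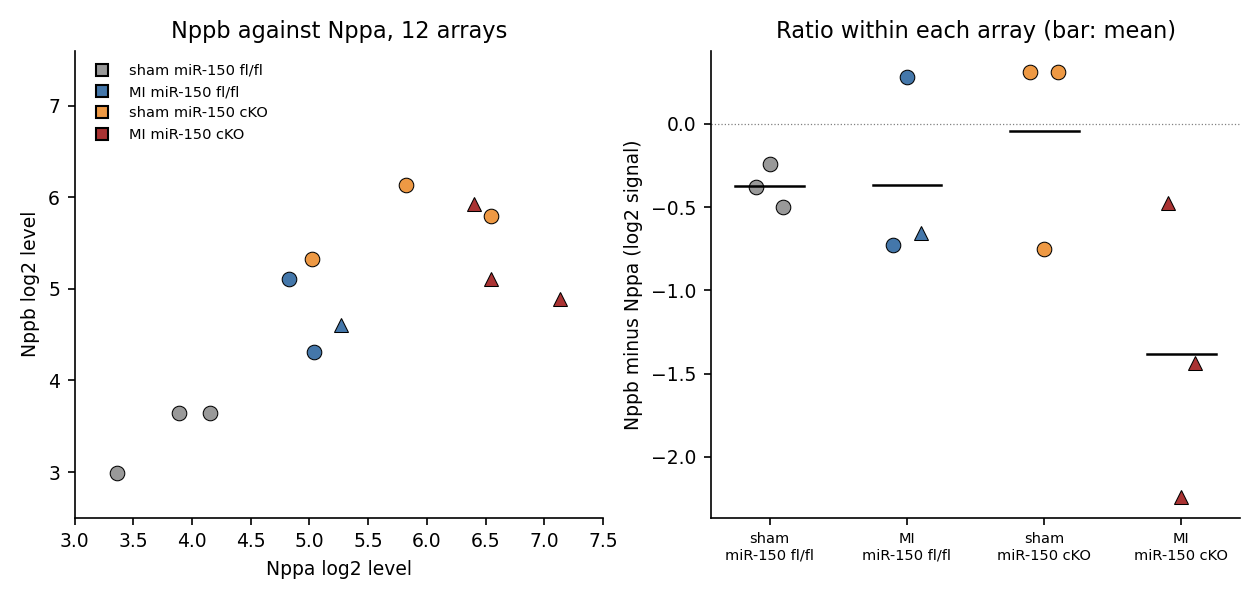
Left, log2 level of Nppb against that of Nppa in the 12 arrays, coloured by group, with triangles for slide 1 and circles for slide 2. Right, Nppb minus Nppa within each array, with group means as bars; the 3 MI miR-150 cKO arrays lie between -2.24 and -0.47 and the 3 sham miR-150 fl/fl arrays between -0.50 and -0.24.

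Within one array, Nppb minus Nppa does not depend on the scaling between arrays. The ratio, in log2, was -0.38, -0.24 and -0.50 in sham miR-150 fl/fl and -0.73, 0.28 and -0.66 in MI miR-150 fl/fl. It was 0.31, -0.75 and 0.31 in sham miR-150 cKO and -0.47, -2.24 and -1.44 in MI miR-150 cKO. Since the probes differ in efficiency, only changes in this ratio can be read.

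The MI cKO ratio was lower than the sham cKO ratio by 1.34 on average (SE 0.62), and the arrays overlapped, with an exact permutation p = 0.2. Against MI miR-150 fl/fl it was lower by 1.02 (SE 0.60), with overlap and an exact permutation p = 0.3. In shams the cKO ratio was 0.33 higher (SE 0.36, exact permutation p = 0.4), and in controls infarction moved it by 0.00 (SE 0.33, exact permutation p = 1). Adjusted over these 4 comparisons, the lowest exact permutation p was 0.533. With 3 arrays a group these exact permutation tests cannot fall below p = 0.1, and the 0.2 and 0.3 for infarcted cKO hearts lay above that floor. A p under 0.05 was out of reach, so the tests do not decide whether the genes parted in these hearts.

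Over the 12 arrays the levels of Nppa and Nppb had a Pearson r of 0.782 (permutation p = 0.00318) and a Spearman rho of 0.657 (permutation p = 0.0245). In all 5 relations were computed, and the first p adjusted over them was 0.00795. Each permutation exchanged arrays freely across groups, so these p-values do not separate group differences from co-variation of the genes within groups. Without MI cKO replicate 2 and sham miR-150 fl/fl replicate 1, the arrays farthest from the median of Nppa, r was 0.815 (permutation p = 0.00532). Within slide 2 (n = 8) r was 0.916 (permutation p = 0.00122).

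Within genotypes the values of r lay apart. In the 6 miR-150 fl/fl ventricles r was 0.884 and rho 0.829 (exact permutation p = 0.0264 and 0.0583). In the 6 miR-150 cKO ventricles r was -0.31 and rho -0.66 (exact permutation p = 0.54 and 0.175), and the difference between genotypes was not tested. After removal of the group means, r over the 12 arrays was 0.128, so the shared pattern lay mostly between groups.

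Each group held 1 male. The Nppb level of the male was the lowest of the group in 3 of 4 groups, the exception being sham miR-150 cKO (5.80 against 5.33 and 6.13 in females). The Nppa level of the male was the highest in both cKO groups, at 6.55 against 5.02 and 5.82 in shams and 7.13 against 6.40 and 6.55 after MI, but the lowest in sham miR-150 fl/fl. Nppb minus Nppa was lowest in the male in 3 of 4 groups. With 1 male a group this is a description, and its part in the results was not tested beyond a fit with sex as a covariate. That fit changed no adjusted call on Nppa or Nppb, but with it Nppb passed the 1.5-fold limits between infarcted hearts (0.63, limma, unadjusted p = 0.0466).

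Of 17 genes listed for the natriuretic peptide pathway, which include the processing enzymes Corin and Furin, the receptors Npr1 to Npr3 and the cGMP-degrading phosphodiesterases, only the 2 members could be named. Apart from housekeeping probes, names came from lists of changed genes that the study chose on these same samples. A named gene is therefore no independent evidence of direction or of passing the limits. Unchanged genes could hardly enter the counts and medians below, which are descriptions.

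Among 8 fetal and stress genes listed, 6 were named. Of these, 4 were higher in sham miR-150 cKO past the 1.5-fold limits and 1 was lower. Over all probes, 0.636% were higher and 1148 of 54232 were lower past them. The list had a median log2 difference of 0.89 against -0.03 over all probes. Myh7, the beta myosin heavy chain of the fetal ventricle, was 2.26 ± 0.56 higher (SE). Ankrd1, a stretch-responsive protein of the sarcomere, was 0.97 ± 0.26 higher, and Gdf15, a secreted stress cytokine, 0.80 ± 0.24 higher. Fhl1, a LIM protein of the sarcomere, was lower by 0.82 on the log2 scale (SE 0.22), and it was not well above background in 2 sham cKO arrays. None passed adjustment (limma, lowest adjusted p = 0.509).

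Sprr1a, a small proline-rich protein induced in stressed cardiomyocytes, had differences close to those of Nppa in all 4 comparisons. They were 1.99 in shams, 1.30 for infarction in controls, 0.98 for infarction in cKO hearts and 1.67 between infarcted hearts, each past the limits, where Nppa had 2.0, 1.25, 0.90 and 1.65.

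In infarcted controls only Sprr1a of these 6 genes was past the limits (0.881% of all probes were higher past them), with a list median of 0.16 against -0.01 over all probes. Myh7 differed by -0.11 ± 0.56 (SE) and Gdf15 by -0.03 ± 0.24 there, whereas both peptide genes differed by 1.25. Between infarcted hearts 4 of 6 were higher past the limits in MI miR-150 cKO (3.45% of all probes were), with a list median of 1.54 against 0.00. Myh7 was 3.27 ± 0.56 higher (SE) and Gdf15 1.84 ± 0.24 higher (limma, adjusted p = 0.073 for each). Acta1, the skeletal actin of the fetal heart, was 1.41 ± 0.64 higher (limma, unadjusted p = 0.0502, adjusted p = 0.298). From sham to infarcted cKO hearts, 3 of 6 were higher past the limits (4.6% of all probes were), with a list median of 0.94 against 0.06 over all probes.

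**Figure D4:**
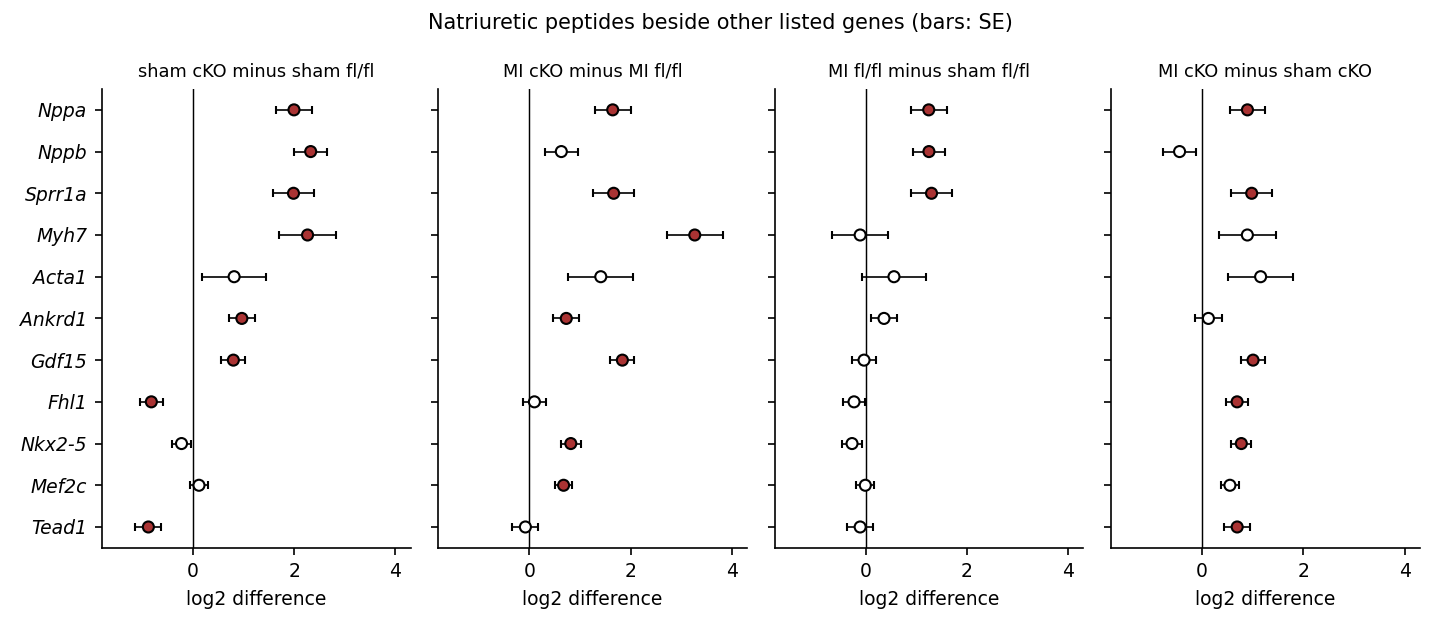
Log2 differences (points) with SE (bars) of Nppa, Nppb and the other genes of the stress and regulator lists that could be named, in 4 comparisons. Filled points are at least 1.5-fold with an unadjusted p under 0.05; in infarcted against sham miR-150 fl/fl hearts only Nppa, Nppb and Sprr1a are filled.

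Of 12 listed regulators of the peptide genes, 3 were named, and their patterns differed from those of Nppa and Nppb. Nkx2-5, a homeobox factor of the cardiac lineage, had differences of -0.23 ± 0.19 (SE) in shams and 0.82 ± 0.19 between infarcted hearts. Mef2c, a MADS-box factor, had 0.12 ± 0.17 and 0.68 ± 0.17. Tead1, which binds MCAT elements, was lower by 0.88 in sham cKO hearts (SE 0.25) and had a difference of -0.08 ± 0.25 between infarcted hearts. In controls none of the 3 passed the limits after infarction, with a median of -0.11. None passed adjustment (limma, lowest adjusted p = 0.0678, for Nkx2-5 in cKO hearts after infarction).

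Markers of other cells moved with the groups, and their part in the results was not tested. Of 10 fibroblast markers listed, 5 were named (Col1a1, Col1a2, Col3a1, Fn1, Postn). Their summed signal, relative to the 75th percentile of the array, ran from 8.61 to 18.9 in sham miR-150 fl/fl, 42.1 to 43.9 in MI miR-150 fl/fl, 26.7 to 36.9 in sham miR-150 cKO and 36.0 to 71.2 in MI miR-150 cKO. All 5 were higher past the limits after infarction of controls (0.881% of all probes were), with a median log2 difference of 1.65 against -0.01 over all probes. In sham cKO hearts 3 of 5 were (0.636% of all probes), with a median of 0.77 against -0.03. These genes, like the leukocyte markers, could be named only from the study's lists of changed genes. Postn, the matricellular protein periostin of activated fibroblasts, was 2.63 ± 0.48 higher (SE) in sham cKO hearts.

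Of 11 leukocyte markers listed, 4 were named (Cd14, Emr1, Lyz2, Mpeg1). Their summed signal ran from 16.2 to 30.9 in sham miR-150 fl/fl, 32.7 to 38.5 in MI miR-150 fl/fl, 35.8 to 49.1 in sham miR-150 cKO and 26.3 to 41.9 in MI miR-150 cKO. Its median was 41.1 in sham miR-150 cKO and 40.3 in MI miR-150 cKO. All 4 were higher past the limits in sham cKO hearts (0.636% of all probes were), with a median log2 difference of 0.84 against -0.03.

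Of the ventricular markers, the summed signal of 3 probes of Tnnt2 and Atp2a2 was 87.6 to 117 in sham miR-150 fl/fl, 55.3 to 92.2 in MI miR-150 fl/fl, 63.7 to 92.1 in sham miR-150 cKO and 112 to 122 in MI miR-150 cKO. Most of this sum came from Atp2a2. Its log2 levels ran from 5.37 to 6.82 over the arrays, against 1.94 to 3.08 for the 2 Tnnt2 probes. In shams, the 2 Tnnt2 probes differed by -0.34 and -0.29 and Atp2a2 by -0.33, none past the limits. In MI miR-150 cKO they went opposite ways: against MI miR-150 fl/fl, Atp2a2 was 0.87 higher and past the limits, while both Tnnt2 probes differed by -0.55 (limma, unadjusted p = 0.00575 and 0.00433). Against sham miR-150 cKO, Atp2a2 was 0.72 higher and past the limits, and the Tnnt2 probes differed by -0.35 and -0.39. The only adipocyte marker named of 5, Adipoq, ran from 0.114 to 0.379 in sham miR-150 fl/fl, 0.704 to 2.83 in MI miR-150 fl/fl, 0.168 to 1.01 in sham miR-150 cKO and 0.0992 to 0.21 in MI miR-150 cKO. No endothelial marker of 6 could be named.

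Across the 734 named probes that were well above background on all 12 arrays, those most like Nppa were B4galnt1 (r = 0.978), Sprr1a (0.954), Col8a1 (0.941), Ccdc68 (0.901) and Serpinb1c (0.90). B4galnt1, a ganglioside-synthesizing glycosyltransferase, also followed Nppa within groups, with r = 0.915 after removal of group means, though its mean level spanned only -2.68 to -1.63. Those most like Nppb were Serpinb1c (r = 0.855), Loxl2 (0.853), Dio2 (0.836), Rhod (0.819) and Fgl2 (0.81). Serpinb1c was the only gene on both lists. These r are descriptions over 12 arrays in 4 groups that share their slides. Nearly all named probes came from the study's lists of changed genes, so the pool was selected for group differences. Probes without a name were not ranked.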

How the data were processed

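Each LV was hybridized to a 1-colour (Cy3) Agilent array, and per the file headers the deposited scanner intensity of each spot was extracted by the authors with Agilent Feature Extraction 11.0.1.1 (design build mm9), with background subtracted. The authors also deposited a table of log2 values with equal quartiles in every array, whose software and method are not given in the sources used here. It served as an alternative and to name probes. The main values were log2 processed signal minus the 75th percentile of the array. Flagged spots (0.0593%) and control spots were left out. A probe was tested if its signal stood well over background on 3 or more arrays, which held for 54232 of 60819.

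One limma 3.58.1 fit (R 4.3.3) covered the 4 groups, with 8 residual degrees of freedom (10.4 after moderation) and Benjamini-Hochberg adjustment over all probes tested. A call was an adjusted p under 0.05. Exact permutation tests used scipy, and correlations 100000 resamples. The fit was tested on simulated data. The files hold no gene names, so 963 entries of the study's gene lists were each matched to 1 probe by fold and p recomputed from the authors' values (relative tolerance 2e-05). This named 892 probes, and 15 housekeeping probes were named by accession. Named genes were the members, 3 gene lists, cell markers and the 5 probes most like each member. A further list, of chromosomal neighbours, is not reported here. Members and lists were chosen with earlier results of these data known. The number of arrays, and 1 spot per gene on each, limit the precision. Replicates were separate mice. Alternatives were quantile normalization, normexp background correction (offset 50), the authors' values, other filters, fits restricted to each pair of groups, the methods' unpaired 2-tailed test, blocks or covariates for sex, replicate number, slide and slide with row, scaling to housekeeping probes, and leaving out each array.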

Additional observations from a re-analysis of the deposited data

How the results depend on the processing

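Of the results on Nppa and Nppb and their ratio, 463 of 473 alternative values kept their direction and their side of the threshold (adjusted p or exact p under 0.05, which few values passed at all). With normexp background correction the Nppa difference between infarcted hearts was 1.63 and passed adjustment (adjusted p = 0.0396, against 0.0869 as reported, limma). Leaving out 1 array at a time gave 2.11 to 2.54 for Nppb in shams, which passed adjustment without sham miR-150 cKO replicate 1 (2.14, adjusted p = 0.0376). The same gave -0.74 to 0.027 for the Nppa interaction, turned to 0.027 without sham miR-150 cKO replicate 2, and -0.32 to 0.18 for the ratio of Nppb to Nppa after infarction of controls, turned to -0.32 when MI miR-150 fl/fl replicate 2 was left out and to -0.06 when replicate 3 of the control shams was. With slide as a block the averaged surgery difference of Nppa was 0.85 (exact permutation p = 0.2), where too few arrays could be exchanged for a p under 0.05. Slide and row as a block, chosen after seeing the data, left few arrangements: the averaged differences were 1.72 (Nppa, genotype), 0.88 (Nppa, surgery) and 1.70 (Nppb, genotype), with exact permutation p of 0.0625, 1 and 0.0625. For genotype, 0.0625 is the smallest p that this blocked permutation test can give. For surgery no exchange was possible, so the p was fixed in advance. Apart from these limits of the blocked tests, the cause of the changes was not tested.

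Replicate numbers did not pair the samples: deviations of same-numbered arrays correlated at -0.273 to 0.274. With the replicate block, the averaged genotype difference of Nppb was 1.48 (exact permutation p = 0.0625), and no other call changed. Nppa in cKO hearts after infarction missed the 1.5-fold limits under 7 of 24 alternatives, among them the compared groups alone and the unpaired test. Scaling to housekeeping probes, also chosen after seeing the data, moved the median of all probes in shams from -0.03 to -0.21 and changed no adjusted call on Nppa or Nppb, though Nppa in sham cKO against infarcted control hearts then passed the 1.5-fold limits (0.71). Among other listed genes, 18 alternative values passed adjustment that had not, 6 of them under normexp and 4 under the filter for all 12 arrays.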
